A study of Homo sapiens with 34 samples.

Results

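The set described here holds 10 genes that mark the output of the mitogen-activated protein kinase (MAPK) cascade: the transcription factor genes EGR1, FOS, FOSL1, JUN and MYC, the MAPK phosphatase genes DUSP4, DUSP5 and DUSP6, and the Sprouty genes SPRY2 and SPRY4. They were chosen by symbol, and all 10 were found among the 26336 genes of the count table. The table holds poly(A) RNA-seq counts of 34 libraries. They come from 4 prostate lines of human origin, cultured either on plastic or on amorphous calcium phosphate (ACP), which serves as a mineral surface in place of bone. RWPE derives from prostate epithelium that forms no tumours, LNCaP comes from a lymph node metastasis, and VCaP and MDAPCa2a come from bone metastases. Each is a single established line, so a difference between lines is a difference between 4 cultures and not between stages of disease.

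Each line had 2 libraries on plastic in its own control medium and 2 in every other group, with exceptions named here. LNCaP and VCaP also had ACP groups in control medium, in medium whose serum had been stripped of steroids with charcoal and dextran, and in stripped medium with androgen at a labelled 100 mM, together with plastic in stripped serum, where VCaP had 1 library. MDAPCa2a had plastic in stripped serum, ACP in stripped serum and ACP with androgen. RWPE had ACP in control medium and ACP with androgen, the latter with 3 libraries. This gave 17 groups. The sample titles name the added hormone as DHT while the condition labels say testosterone, and the text uses androgen for both. RWPE medium was serum-free and carried epidermal growth factor (EGF) and pituitary extract, whereas the other lines had serum, and whether the RWPE androgen medium held stripped serum is not clear from the labels. The plastic for MDAPCa2a carried a protein coating that its ACP surfaces did not have. The labels give plastic control cultures as continuous culture and all others as day 4, and they do not say whether the libraries of a group came from separate cultures, so p-values measure the spread between these libraries only.

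When a growth factor receptor is engaged, the RAS, RAF, MEK and ERK proteins pass the signal on, and ERK phosphorylates factors that switch on immediate early genes within minutes, without new protein synthesis. EGR1, FOS and JUN are classic members of that first wave, while FOSL1 and MYC respond to sustained signalling and MYC drives growth and ribosome production. The products of DUSP4, DUSP5 and DUSP6 dephosphorylate MAPKs, and Sprouty proteins restrain the cascade between the receptor and RAF, so the RNA of these 5 genes is a usual readout of how much feedback the cascade has built up. In prostate epithelium the cascade is driven by EGF-family ligands and interacts with androgen signalling, and MYC is often raised in prostate cancer.

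The 250 bases before the start site are shown for 5 genes on which the differences between lines, surfaces or replicate libraries turn. They come from the RefSeq promoter table (build GRCh38.p14), which matched 6 of the 10 members, those shown and JUN. Each is written 5′ to 3′ on the strand of the gene.
EGR1, chr5:138465229-138465478, plus strand: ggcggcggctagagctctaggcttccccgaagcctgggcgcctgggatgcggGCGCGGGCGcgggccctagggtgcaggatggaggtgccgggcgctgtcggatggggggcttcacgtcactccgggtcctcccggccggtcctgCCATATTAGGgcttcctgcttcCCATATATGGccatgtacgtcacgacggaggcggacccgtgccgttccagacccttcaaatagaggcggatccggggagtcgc
FOS, chr14:75278578-75278827, plus strand: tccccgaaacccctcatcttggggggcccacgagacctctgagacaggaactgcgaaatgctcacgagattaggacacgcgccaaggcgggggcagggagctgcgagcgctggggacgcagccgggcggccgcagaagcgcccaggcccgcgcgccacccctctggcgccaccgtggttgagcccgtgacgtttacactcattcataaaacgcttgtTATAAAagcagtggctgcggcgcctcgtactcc
DUSP6, chr12:89352502-89352751, minus strand: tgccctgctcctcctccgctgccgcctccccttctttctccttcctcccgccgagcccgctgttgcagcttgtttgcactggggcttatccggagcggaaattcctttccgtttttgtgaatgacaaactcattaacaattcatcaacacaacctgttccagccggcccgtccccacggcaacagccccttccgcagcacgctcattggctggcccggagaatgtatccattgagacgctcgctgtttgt
SPRY2, chr13:80341127-80341376, minus strand: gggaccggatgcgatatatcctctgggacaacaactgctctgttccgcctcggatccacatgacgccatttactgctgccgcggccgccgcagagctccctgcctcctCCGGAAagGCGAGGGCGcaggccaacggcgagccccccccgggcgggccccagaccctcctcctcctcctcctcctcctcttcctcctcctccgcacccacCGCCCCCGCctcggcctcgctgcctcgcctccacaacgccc
SPRY4, chr5:142324248-142324497, minus strand: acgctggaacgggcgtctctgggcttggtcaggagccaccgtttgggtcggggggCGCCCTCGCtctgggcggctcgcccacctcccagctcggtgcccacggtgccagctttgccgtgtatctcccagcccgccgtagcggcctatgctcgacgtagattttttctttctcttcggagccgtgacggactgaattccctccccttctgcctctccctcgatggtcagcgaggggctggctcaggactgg
Capitals mark matches on either strand to the CArG box (the element bound by serum response factor), to the EGR site GCGNGGGCG, to the ETS site CCGGAA and to the TATA box TATAAA. The CArG box was found in EGR1 alone among the 6 matched members, at 105 to 96 and at 83 to 74 bases before the start, and in 1.14% of 27305 promoter windows of the same length. The EGR site was in 3 of the 6, EGR1, SPRY2 and SPRY4, and in 8.25% of all windows. The ETS site was in SPRY2 (14.8% of all windows) and the TATA box in FOS (11.1%). No match was found in the 6 windows for the AP-1 site TGANTCA (6.6% of all windows) or the cAMP response element TGACGTCA (1.77%), whereas TGACG, which is contained in that element, was in 5 of them (21.7%). These matches describe letters in the windows and were not measured as binding sites. Sequence further upstream was not searched, so a gene without a match may carry the element there.

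Libraries held 15440141 to 44779246 counts. The 8 plastic control libraries stood apart: in RWPE the summed level of 4 liver genes was 11.7 to 12.4 CPM (counts scaled to a common library total) there and 0 to 0.529 CPM in its other libraries, in LNCaP 10.4 to 15.4 against 0.553 to 1.51 CPM, and in MDAPCa2a 5.46 to 10.2 against 0 to 0.63 CPM. In VCaP the ranges overlapped, at 62.3 to 143 and 15.7 to 322 CPM. The liver transcript FGG had reads in all 8 plastic control libraries (1.41 to 2.84 CPM) and in 1 of the 26 others. Of the other cell type lists, 4 blood and immune genes summed to 17.9 to 19.4 CPM in RWPE plastic control libraries and 3.25 to 5.7 CPM in its others and to 13.4 to 16.8 against 2.33 to 7.34 CPM in LNCaP, overlapped in VCaP and were lower than in the others in MDAPCa2a (1440 to 1590 against 2010 to 3610 CPM). PTPRC, which defines leukocytes, was at most 0.175 CPM in all 8. CD74, on the same list, was 4.69 to 16.9 CPM in the 8 and at most 4.51 CPM in the 26 others. The other genes of that list, PTPRC, HLA-DRA and LYZ, overlapped between these sets of libraries. The 4 fibroblast genes were also higher in the plastic control libraries of MDAPCa2a (4.69 to 5.95 against 0.954 to 2.19 CPM) and VCaP (9.28 to 10.3 against 2.85 to 8.48 CPM) and overlapped in the other lines, and 3 muscle genes were 2.79 to 3.54 against 0.0636 to 0.404 CPM in MDAPCa2a, and were also above the other libraries in LNCaP (0.232 to 0.243 against at most 0.207 CPM) and VCaP (0.408 to 0.747 against at most 0.131 CPM). Among single fibroblast genes, COL1A2 was 0.75 to 1.76 CPM in the 8 plastic control libraries and at most 0.176 CPM in the 26 others. COL1A1, COL3A1 and DCN overlapped. The part of these transcripts in the members' values was not tested. Of the lines' own markers, 4 basal epithelial genes summed to 4050 CPM or more in all RWPE libraries and to at most 39.7 CPM elsewhere, while 5 luminal genes summed to 798 to 1450 CPM in RWPE, overlapping LNCaP at 1270 to 7010 CPM, and to 4230 CPM or more in VCaP and MDAPCa2a. ERG was 126 CPM or more in VCaP and at most 2.32 CPM in the other lines. CPM here uses library totals scaled by the trimmed mean of M-values (TMM) over all 34 libraries.

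**Figure D1:**
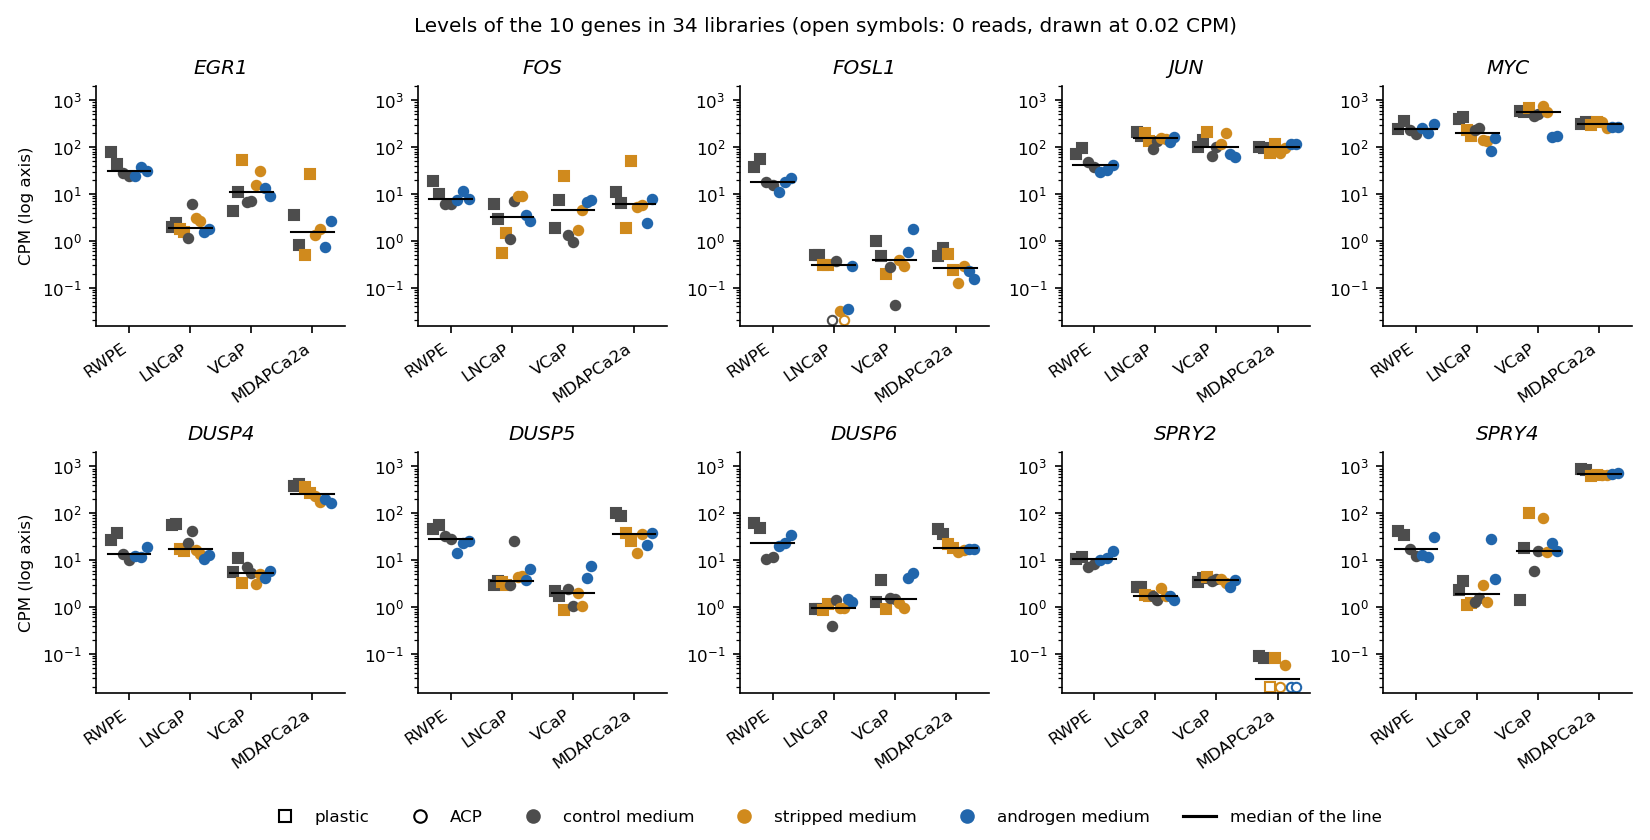
Level of each of the 10 genes (CPM, log axis) in every library by cell line; squares are plastic and circles ACP, colours give the medium, bars the median of a line, and open symbols libraries with 0 reads. SPRY4 and DUSP4 lie highest in MDAPCa2a, where SPRY2 has 0 to 3 reads, and FOSL1 lies at 10.9 CPM or more in RWPE and at most 1.75 CPM elsewhere.

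The lines differed widely in the feedback genes. SPRY4, whose product inhibits receptor signalling to RAF, ran from 620 to 883 CPM in the 8 MDAPCa2a libraries (median 673), from 11.7 to 42.3 CPM in the 7 RWPE libraries (median 17.3), from 1.43 to 102 CPM in the 9 VCaP libraries (median 15.8) and from 1.08 to 28.8 CPM in the 10 LNCaP libraries (median 1.92). The lowest MDAPCa2a library was thus above every library of the other lines. SPRY2, its paralog with the same known role, was lowest where SPRY4 was highest. It ran from 7.22 to 15.7 CPM in RWPE (median 10.5), from 2.73 to 4.47 CPM in VCaP (median 3.77), from 1.4 to 2.73 CPM in LNCaP (median 1.74) and from 0 to 0.0893 CPM in MDAPCa2a, where the 8 libraries held 0 to 3 reads each. On plastic in control medium, with 2 libraries a line, MDAPCa2a exceeded LNCaP in SPRY4 by 8.19 ± 1.03 on the log2 scale (edgeR quasi-likelihood test, Benjamini-Hochberg adjusted p = 5.31e-07). It lay below LNCaP in SPRY2, with a log2 difference of -4.91 ± 0.474 (edgeR adjusted p = 1.13e-08). Here and below, ± after a log2 value is its size divided by the square root of the test's F statistic. It is an approximate standard error that rests on the whole fit. On ACP with androgen both MDAPCa2a libraries had 0 SPRY2 reads, which allows up to 0.0805 CPM (3 counts over the group), so the level was at least 153-fold lower than in RWPE, at least 40.3-fold lower than in VCaP and at least 19.7-fold lower than in LNCaP.

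DUSP4, a nuclear phosphatase of ERK and other MAPKs, was also highest in MDAPCa2a, at 167 to 428 CPM (median 254), with no overlap with LNCaP at 10.4 to 60.2 CPM (median 17.1). RWPE held 10.2 to 37.9 CPM and VCaP 3.07 to 10.9 CPM, and LNCaP and RWPE, next to each other in the order, overlapped. MDAPCa2a exceeded RWPE in DUSP4 by 3.67 ± 0.338 on plastic in control medium (log2, edgeR adjusted p = 1.33e-09) and by 3.67 ± 0.293 on ACP with androgen (edgeR adjusted p = 8.09e-11). DUSP5, a nuclear phosphatase that acts on ERK, and DUSP6, its cytoplasmic counterpart, had higher medians in MDAPCa2a and RWPE than in LNCaP and VCaP. DUSP5 was 14.3 to 99.5 CPM in MDAPCa2a and 14.2 to 56.2 CPM in RWPE, against 2.9 to 25.3 CPM in LNCaP and 0.865 to 7.58 CPM in VCaP. DUSP6 was 10.6 to 62.2 CPM in RWPE and 14.8 to 45.5 CPM in MDAPCa2a, against 0.913 to 5.43 CPM in VCaP and 0.393 to 1.49 CPM in LNCaP. RWPE and MDAPCa2a overlapped in both genes, and in DUSP5 the highest LNCaP library also overlapped them, and on plastic neither DUSP5 nor DUSP6 passed the test between them (edgeR adjusted p = 0.177 and 0.313). LNCaP lay below RWPE in DUSP6 by a log2 difference of -5.89 ± 0.438 on plastic (edgeR adjusted p = 3.44e-11) and of -4.23 ± 0.403 on ACP with androgen (edgeR adjusted p = 1.7e-09).

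Among the transcription factor genes, FOSL1, an AP-1 subunit linked to sustained ERK activity, was the most unequal. Its level was 10.9 to 54.9 CPM in RWPE (median 17.7) and at most 1.75 CPM in every library of the 3 cancer lines, where it had 0 to 40 reads. The log2 difference from RWPE on plastic was -6.53 ± 0.647 in LNCaP, -5.98 ± 0.63 in VCaP and -6.30 ± 0.645 in MDAPCa2a (edgeR adjusted p = 5.22e-09, 1.21e-08 and 8.4e-09). EGR1, a zinc-finger factor of the first wave, was 23.5 to 78.5 CPM in RWPE, 4.4 to 52.4 CPM in VCaP, 1.14 to 6.17 CPM in LNCaP and 0.498 to 26.5 CPM in MDAPCa2a, and LNCaP and MDAPCa2a did not differ beyond their spread (edgeR adjusted p = 1 on plastic). FOS, the AP-1 partner of JUN, had overlapping libraries in all 4 lines, with medians of 7.85 CPM in RWPE, 6.09 in MDAPCa2a, 4.43 in VCaP and 3.25 in LNCaP. It passed the test in none of the 12 comparisons of lines, with edgeR adjusted p from 0.104 to 0.972, though VCaP against RWPE on plastic was called without VCaP replicate 2 (log2 -2.90 to -0.95 over the libraries left out).

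JUN, the AP-1 subunit that pairs with FOS, was lowest in RWPE, where FOSL1 was highest: 91.1 to 209 CPM in LNCaP (median 154), 61.8 to 212 CPM in VCaP (median 102), 73.9 to 117 CPM in MDAPCa2a (median 99.8) and 29.4 to 94.4 CPM in RWPE (median 40.9). LNCaP exceeded RWPE by 1.22 ± 0.28 on plastic and by 2.08 ± 0.253 on ACP with androgen (log2, edgeR adjusted p = 0.000619 and 1.02e-07). MYC differed less between lines, with medians of 551 CPM in VCaP, 307 in MDAPCa2a, 247 in RWPE and 198 in LNCaP, and the libraries of every neighbouring pair of lines overlapped. VCaP exceeded RWPE in MYC by 0.92 ± 0.247 on plastic (log2, edgeR adjusted p = 0.00231, not called without RWPE replicate 1, log2 0.63 to 1.22 over the libraries left out) and lay below it on ACP with androgen, with a log2 difference of -0.58 ± 0.228 (edgeR adjusted p = 0.0279, not called without either VCaP library or without RWPE replicate 1 or 3, log2 -0.65 to -0.33 over the libraries left out).

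Of the 10 members, 8 were called between LNCaP and RWPE on plastic, where 57.4% of all tested genes were, 8 between VCaP and RWPE (62.4%), 5 between MDAPCa2a and RWPE (56.7%), 2 between VCaP and LNCaP (52.6%), 6 between MDAPCa2a and LNCaP (40.2%) and 6 between VCaP and MDAPCa2a (52.4%). On ACP with androgen the counts in the same order were 7 (66.9%), 7 (67.4%), 6 (64%), 6 (56%), 6 (45.3%) and 9 (51.4%). With 40.2% to 67.4% of all genes called, the number of members called says little, and the lines differ in the size and direction of single genes. The 2 VCaP calls against LNCaP on plastic were DUSP4, lower by a log2 difference of -2.83 ± 0.331, and DUSP6, higher by 1.49 ± 0.402 (edgeR adjusted p = 1.2e-07 and 0.00316), the latter lost without VCaP plastic control replicate 2, when the log2 difference was 0.48. The 9 calls between VCaP and MDAPCa2a on ACP with androgen were all members but FOS. Medium and line cannot be told apart in these comparisons, since each line had its own medium.

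Levels between genes can be set side by side per kilobase of merged exon (lengths from GENCODE 29, an annotation of GRCh38). On that scale MYC was the highest of the 10 in 12 of 17 groups, SPRY4 in the 4 MDAPCa2a groups and JUN in LNCaP on ACP with androgen. In MDAPCa2a on plastic in control medium SPRY4 stood at 175 CPM per kilobase and MYC at 109, whereas in LNCaP on the same surface MYC stood at 139, JUN at 54 and DUSP6, the lowest, at 0.202.

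In RWPE, all 10 members were lower on ACP than on plastic in control medium, with no overlap between the libraries of the groups for any of them, and 5 passed the test, all lower (EGR1, FOSL1, JUN, DUSP4 and DUSP6), where 4.16% of 14293 genes were called in either direction. The share of all genes without overlap was not counted, here or in the other comparisons, so counts without overlap describe the members only. The median log2 difference was -1.21 over the members and 0.027 over all genes tested. DUSP6 fell from 62.2 and 47.4 CPM on plastic to 10.6 and 11.6 CPM on ACP, a log2 change of -2.28 ± 0.261 (edgeR adjusted p = 0.00343). The next largest was FOSL1, at 37.6 and 54.9 CPM on plastic and 17.5 and 15.4 CPM on ACP, with a log2 change of -1.47 ± 0.29 (edgeR adjusted p = 0.0249). DUSP4 fell from 26.5 and 37.9 to 13.3 and 10.2 CPM (log2 -1.43 ± 0.278, edgeR adjusted p = 0.0236). EGR1 fell from 78.5 and 43.3 to 28.1 and 23.5 CPM (log2 -1.21 ± 0.284, edgeR adjusted p = 0.0427), and JUN from 69.8 and 94.4 to 47.3 and 37.8 CPM (log2 -0.92 ± 0.218, edgeR adjusted p = 0.0434). In each case both plastic libraries were above both ACP libraries. The other AP-1 gene, FOS, was 18.6 and 9.89 CPM on plastic and 5.96 and 6.23 CPM on ACP (log2 -1.20, edgeR adjusted p = 0.0617), and SPRY4 was 42.3 and 34.3 against 17.3 and 12.2 CPM (log2 -1.35, edgeR adjusted p = 0.0812), and neither passed in this fit.

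The number of RWPE calls depended on the fit, in both directions. DESeq2 called 7 members, FOS and SPRY4 besides the 5, and 1401 of 14293 genes. An unadjusted edgeR p below 0.05 was found for 8 members and 3269 genes. With the replicate number as a block edgeR called 8, FOS, DUSP5 and SPRY4 besides the 5 (adjusted p = 0.0182, 0.0195 and 0.000307). No label ties libraries of the same replicate number to each other across groups, so this block may match unrelated libraries. The shares of all genes called with the block, with a library left out or in the fit of all lines are not given here. With 1 of the 4 libraries left out, 0 to 3 members were called, and in the fit of all lines 2 were, DUSP4 and DUSP6. DUSP6 was called without either plastic library but not without either ACP library, with log2 changes of -2.46 to -2.07. DUSP4, FOSL1 and JUN were each not called without any 1 of the 4 libraries (log2 -1.67 to -1.14, -1.72 to -1.17 and -1.13 to -0.69), and EGR1 was called only with plastic replicate 2 left out (log2 -1.58 to -0.73 over the 4). FOS was called in that same fit. Of the other pathway genes on fixed lists, 4 of 19 tested immediate early genes were lower and 0 higher (median log2 -0.37), with the largest fall in CTGF, a matricellular protein gene also known as CCN2 (-3.07 ± 0.682, edgeR adjusted p = 0.036). Of 19 other ERK output and feedback genes 3 were lower and 0 higher (median -0.73), with the largest fall in ETV5, an ETS factor (-1.52 ± 0.262, edgeR adjusted p = 0.0163). The 22 ERK cascade genes had a median of -0.07. The RWPE plastic control libraries are among those with the higher liver transcripts and CD74 described above. Whether the surface, the culture time in the labels or what sets these libraries apart moved the members cannot be told apart.

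**Figure D2:**
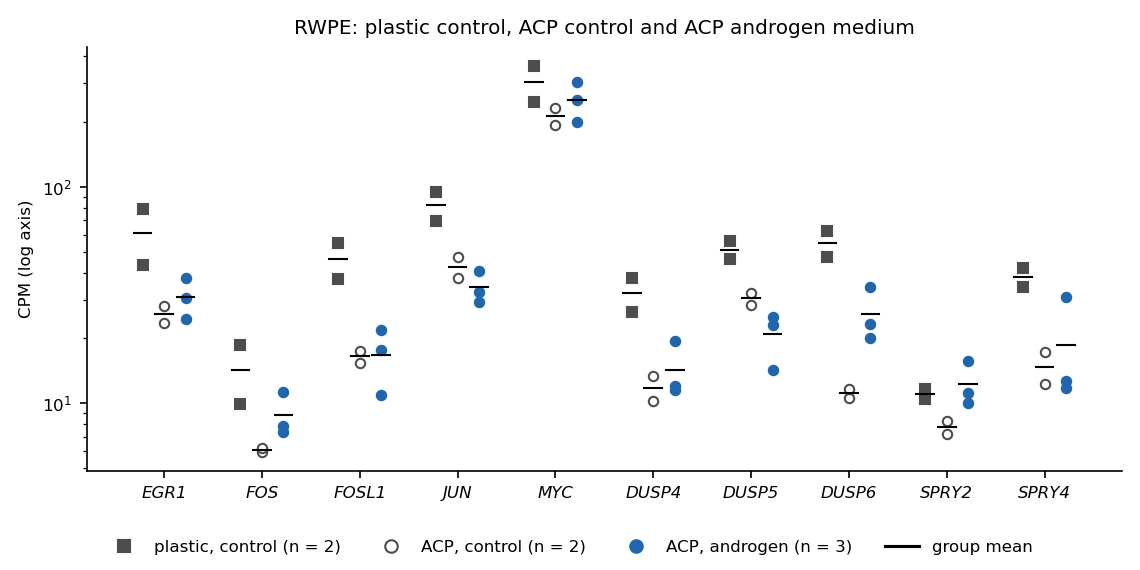
Level (CPM, log axis) of the 10 genes in the 7 RWPE libraries: plastic control (squares), ACP control (open circles) and ACP androgen medium (blue circles), with group means as bars. For every gene both plastic control libraries lie above both ACP control libraries, and in DUSP6 the 3 androgen libraries lie between them; levels are not scaled for gene length, so they compare within a gene.

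RWPE on ACP with androgen differed from ACP in control medium in DUSP6, which was 20, 23.2 and 34.3 CPM with androgen and 10.6 and 11.6 CPM without. The groups did not overlap, and the log2 change was 1.24 ± 0.241 (edgeR adjusted p = 0.017, not called without either control library, log2 0.99 to 1.39). It was the only member called by edgeR without a replicate block, where 19.1% of all tested genes were. SPRY2 was 10, 11.2 and 15.7 CPM against 7.22 and 8.28 CPM, also without overlap (log2 0.69, edgeR adjusted p = 0.0558). DUSP5 was lower in the 3 androgen libraries, at 14.2, 23 and 25.1 CPM, than in the 2 control libraries, at 32.4 and 28.5 CPM (log2 -0.53, edgeR adjusted p = 0.115, called without androgen replicate 3, log2 -0.68 to -0.32 over the libraries left out). DUSP4 overlapped between the groups. With the replicate block DUSP5 was called as well as DUSP6, making 2 (edgeR adjusted p = 0.0109 and 0.0014). DESeq2 called DUSP6 and SPRY2, and 3744 of 14293 genes. Of the fixed lists, 1 of 19 other immediate early genes was higher and 3 lower, and 3 of 19 other ERK output genes were higher and 2 lower. The largest changes among these were a rise in DUSP1, a nuclear MAPK phosphatase gene (1.36 ± 0.327, edgeR adjusted p = 0.0234), and a fall in FOSL2, an AP-1 gene (-1.16 ± 0.213, edgeR adjusted p = 0.017). As the composition of this medium is not clear, the androgen and the rest of the medium cannot be told apart.

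In LNCaP in control medium 6 of 10 members were lower on ACP without overlap (FOSL1, JUN, MYC, DUSP4, SPRY2 and SPRY4), 0 were higher without overlap and 4 overlapped, with a median log2 difference of -0.68 over the members and 0.02 over all genes. By edgeR 0 of 10 passed, where 12.6% of 14656 genes were called. An unadjusted edgeR p below 0.05 was found for 5 members and 4631 genes, and DESeq2 called 3 members and 2673 genes. JUN was 91.1 and 133 CPM on ACP and 209 and 173 CPM on plastic (log2 -0.67, edgeR adjusted p = 0.06), and MYC was 226 and 250 against 394 and 441 CPM (log2 -0.71, edgeR adjusted p = 0.0745). DUSP4 was 22.8 and 42 against 57.1 and 60.2 CPM (log2 -0.76, edgeR adjusted p = 0.06). These are the members that DESeq2 called, and each was lower on ACP in both libraries. JUN and DUSP4 were called by edgeR without ACP control replicate 2 (log2 -0.97 to -0.46 and -1.26 to -0.42 over the libraries left out). DUSP5, at 2.9 and 25.3 CPM on ACP and 2.98 and 3.64 CPM on plastic, was called without ACP control replicate 1 (log2 -0.09 to 3.00 over the libraries left out) and in the fit of all lines (edgeR adjusted p = 0.0477), and only the second ACP library was high. In VCaP in control medium 4 members were lower on ACP without overlap (FOS, FOSL1, JUN and MYC) and 0 higher, with a median of -0.28. FOS was 1.32 and 0.95 CPM on ACP and 1.9 and 7.37 CPM on plastic (log2 -1.98, edgeR adjusted p = 0.617). By edgeR 0 of 10 passed, where 7 of 15614 genes, 0.0448%, were called. An unadjusted edgeR p below 0.05 was found for 2 members and 1123 genes, and DESeq2 called 0 members and 40 genes. Both comparisons use the plastic control libraries that stand apart.

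In LNCaP in stripped serum, 4 members were higher on ACP without overlap (EGR1, FOS, DUSP5 and SPRY4), 2 were lower (FOSL1 and MYC) and 4 overlapped. The median log2 difference over the members was 0.123. FOS was 8.89 and 9.18 CPM on ACP and 0.539 and 1.43 CPM on plastic, where it had 21 and 28 reads. The groups were far apart, and FOS rose by a log2 change of 3.33 ± 0.75 (edgeR adjusted p = 0.0288). The call was lost without plastic replicate 1 or either ACP library (log2 2.62 to 4.14) and in the fit of all lines (edgeR adjusted p = 0.092). It was the only one of the 10 called, where 6.12% of genes were. The surface difference in FOS between stripped and control medium was itself 3.36 on the log2 scale and did not pass (edgeR adjusted p = 0.274). It was called without ACP control replicate 2 (log2 2.60 to 5.24 over the libraries left out). By edgeR 0 of 10 members passed that interaction, where 0.307% of 14656 genes did. An unadjusted edgeR p below 0.05 was found for 2 members and 1276 genes, and DESeq2 called 0 members and 209 genes.

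VCaP in stripped serum, with 1 plastic library, had 0 of 10 members called by edgeR (2 at an unadjusted p below 0.05, 0 by DESeq2), where 0% of genes were. MDAPCa2a had 0 of 9 called by edgeR, where 0.00734% of genes were, SPRY2 having too few reads to be tested in that line. There 1 member and 2071 of 13626 genes had an unadjusted edgeR p below 0.05, and DESeq2 called 0 members and 213 genes. Between MDAPCa2a and LNCaP, 0 of 10 differed in the surface effect by edgeR, where 0.358% of 17323 genes did. An unadjusted edgeR p below 0.05 was found for 2 members and 1618 genes, and DESeq2 called 1 member and 212 genes. The one called by DESeq2 was FOS, with a difference of -5.53 (edgeR adjusted p = 0.0702). With single libraries left out it ran from -6.49 to -1.74, and edgeR called it without MDAPCa2a plastic stripped replicate 1, 1 of a pair that differed widely in FOS.

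In LNCaP, MYC and DUSP4 were lower in stripped serum than in control medium, MYC with a call on plastic only. Medium and culture time cannot be told apart on plastic, where the labels give control cultures as continuous and stripped ones as day 4. On plastic DUSP4 fell from 57.1 and 60.2 CPM in control medium to 17.4 and 15.6 CPM, a log2 change of -1.78 ± 0.249 (edgeR adjusted p = 0.00164), which was called with each library left out in turn (log2 -1.83 to -1.73). MYC fell from 394 and 441 to 231 and 170 CPM (log2 -1.01 ± 0.244, edgeR adjusted p = 0.0258), a call lost without any 1 of the 4 libraries (log2 -1.20 to -0.86). Both genes had groups without overlap, and they were the 2 members called where 9.45% of genes were. On ACP, where the control libraries lack the liver transcripts, DUSP4 fell again, from 22.8 and 42 to 16.8 and 13.3 CPM (log2 -1.12 ± 0.247, edgeR adjusted p = 0.0242), and was the 1 member called, where 5.37% of genes were. Leaving out ACP control replicate 2 or either stripped library ended that call (log2 -1.49 to -0.65). MYC on ACP was 226 and 250 CPM in control and 139 and 132 CPM in stripped medium (log2 -0.83, edgeR adjusted p = 0.0778), without overlap.

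In VCaP under stripping on ACP, 0 of 10 members passed by edgeR, where 0.82% of 15614 genes were called. An unadjusted edgeR p below 0.05 was found for 3 members and 2585 genes, and DESeq2 called 2 members and 860 genes. The 2 called by DESeq2 were EGR1, at 15.6 and 30.9 CPM stripped and 6.62 and 7.21 CPM in control medium (log2 1.77, edgeR adjusted p = 0.0952), and JUN, at 116 and 197 against 64.9 and 98 CPM (log2 0.96, edgeR adjusted p = 0.14). Both stripped libraries were above both control libraries in each. MYC was 731 and 551 CPM stripped and 456 and 503 CPM in control medium. The stripping effect on MYC was thus 1.23 higher in VCaP than in LNCaP on the log2 scale, a difference that did not pass by edgeR (adjusted p = 0.101). By edgeR 0 of 10 members passed that comparison, where 0.595% of 17323 genes did. An unadjusted edgeR p below 0.05 was found for 2 members and 2289 genes. DESeq2 called 1 member, which was MYC, and 440 genes. On plastic the single VCaP stripped library had EGR1 at 52.4 CPM against 4.4 and 11.2 CPM in control medium (log2 2.80 ± 0.516, edgeR adjusted p = 0.0473), the 1 member called where 0.89% of genes were. That call was lost without plastic control replicate 1, with RLE scaling and in the fit of all lines (log2 2.26 to 3.57 over the control libraries left out). The same library had FOS at 24.5 CPM against 1.9 and 7.37 CPM (log2 2.45, edgeR adjusted p = 0.0929) and SPRY4 at 102 CPM against 1.43 and 18 CPM (log2 3.43, edgeR adjusted p = 0.13), and both were called without plastic control replicate 2 (log2 1.76 to 3.69 and 2.52 to 6.14 over the libraries left out).

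In MDAPCa2a on plastic, DUSP6 was 21.8 and 18.2 CPM in stripped serum and 45.5 and 36.6 CPM in control medium. The log2 change was -1.004 ± 0.181 (edgeR adjusted p = 0.0357), the 1 of 9 tested members called where 1.58% of genes were. The groups did not overlap, and the call was lost without any 1 of the 4 libraries (log2 -1.16 to -0.85) and in the fit of all lines (edgeR adjusted p = 0.129). DUSP5 was 38.3 and 26.2 CPM stripped and 99.5 and 89.1 CPM in control medium (log2 -1.52, edgeR adjusted p = 0.0992), also without overlap. The ETS factor gene ETV4, an ERK output on the fixed lists, fell by a log2 change of -1.07 ± 0.216 (edgeR adjusted p = 0.0484) and the phosphatase gene DUSP2 rose by 1.53 ± 0.27 (edgeR adjusted p = 0.0343), the 2 of 17 called. The comparisons on plastic use the plastic control libraries, in which the liver transcripts moved with the group, and their part in these results was not tested. As in LNCaP, medium and culture time cannot be told apart on plastic.

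Of the androgen against stripped comparisons on ACP, the one in VCaP called the most members. MYC fell from 731 and 551 CPM in stripped medium to 166 and 170 CPM with androgen, a log2 change of -1.93 ± 0.21 (edgeR adjusted p = 0.00103), called with each of the 4 libraries left out (log2 -2.12 to -1.67). DUSP6 rose from 1.22 and 0.943 CPM (25 and 23 reads) to 4.15 and 5.43 CPM (log2 2.15 ± 0.546, edgeR adjusted p = 0.0254). DUSP5 rose from 2 and 1.07 CPM (41 and 26 reads) to 4.15 and 7.58 CPM (log2 1.94 ± 0.546, edgeR adjusted p = 0.0367). JUN fell from 116 and 197 to 70.5 and 61.8 CPM (log2 -1.24 ± 0.293, edgeR adjusted p = 0.0195). No libraries of the 2 groups overlapped in these 4 genes, so 2 transcription factor genes were lower and 2 phosphatase genes higher, where 17.5% of 15614 genes were called. The last 3 calls were less firm: DUSP6 was not called without any 1 of the 4 libraries (log2 1.94 to 2.39), DUSP5 not without either stripped library or androgen replicate 2 (1.44 to 2.50), and JUN not without stripped replicate 2 or either androgen library (-1.53 to -0.81).

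Among the other VCaP members, EGR1 was 15.6 and 30.9 CPM stripped and 13.3 and 8.8 CPM with androgen, and FOS was 1.71 and 4.43 against 6.79 and 7.45 CPM, without overlap in either gene, though neither passed (edgeR adjusted p = 0.118 and 0.182). SPRY4 was 79.2 and 15 CPM stripped and 23.4 and 15.8 CPM with androgen, so its groups overlapped. DUSP4 and SPRY2 stayed between 2.73 and 5.83 CPM in all 4 libraries. On the fixed lists 4 of 20 other immediate early genes rose and 1 fell, with ATF3, a stress-induced factor, up by 3.87 ± 0.472 (edgeR adjusted p = 0.00151) and BTG2, an antiproliferative gene, down by a log2 change of -1.67 ± 0.219 (edgeR adjusted p = 0.00213). Of 19 other ERK output genes 4 rose and 1 fell. ETV4 rose by 2.32 ± 0.594 (edgeR adjusted p = 0.0261), and EPHA4, an ephrin receptor, fell by a log2 change of -1.27 ± 0.374 (edgeR adjusted p = 0.0426). Of 22 cascade genes 0 rose and 2 fell. The median log2 change was 0.21 over the first list, 0.20 over the second and -0.03 over all genes tested.

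**Figure D3:**
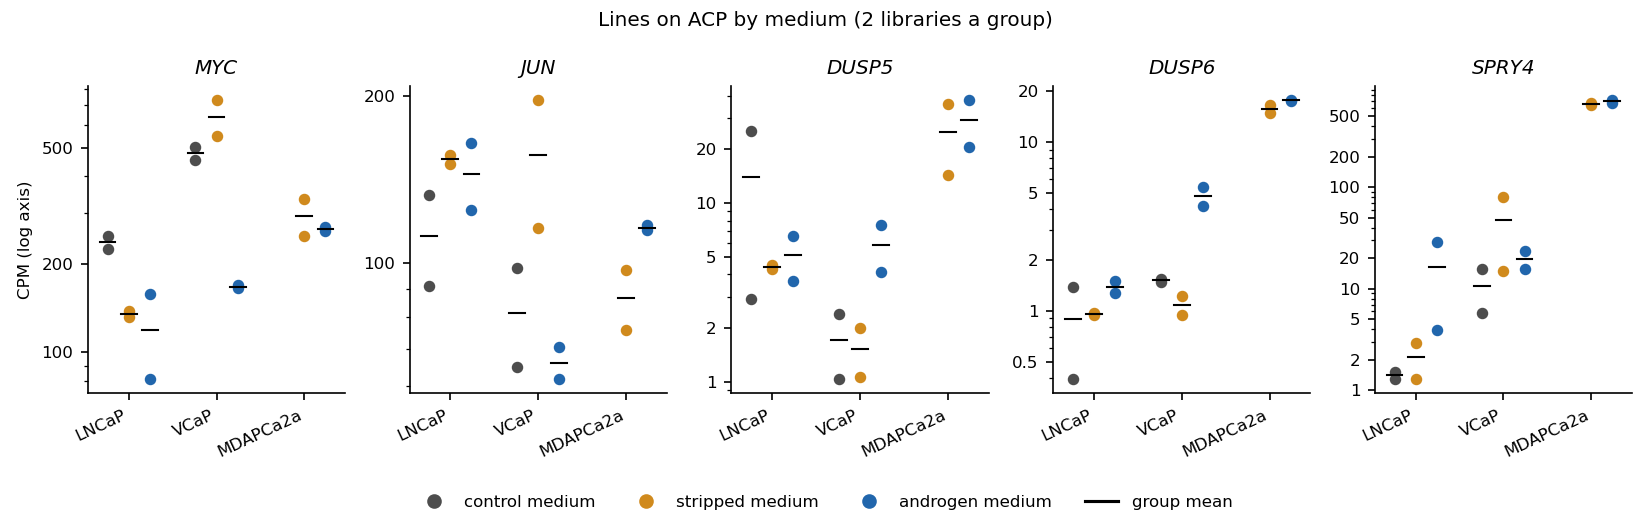
Level (CPM, log axis, a scale of its own for each gene) of MYC, JUN, DUSP5, DUSP6 and SPRY4 in the ACP libraries of LNCaP, VCaP and MDAPCa2a by medium, with group means as bars; for MDAPCa2a the control medium was not run on ACP. VCaP MYC lies at 166 and 170 CPM with androgen and at 456 CPM or more in the other 4 libraries, and the LNCaP androgen libraries stand at 28.8 and 3.95 CPM for SPRY4.

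In LNCaP another member was called. SPRY4 was 28.8 and 3.95 CPM with androgen (834 and 121 reads) and 2.94 and 1.3 CPM without, a log2 change of 2.94 ± 0.725 (edgeR adjusted p = 0.0325). Both androgen libraries were above both stripped ones, but the higher carried most of the difference: without it the log2 change was 0.87 and was not called, and the call was also lost without either stripped library and in the fit of all lines (edgeR adjusted p = 0.0564). SPRY4 was the 1 member called, where 7.73% of genes were. MYC was 81 and 158 CPM with androgen and 139 and 132 CPM stripped, so its groups overlapped, and it was called only without androgen replicate 2 (log2 -0.74 to 0.19 over the libraries left out). Of the fixed lists, 2 of 19 other immediate early genes rose and 0 fell, the largest EGR3 (2.40 ± 0.628, edgeR adjusted p = 0.0405). Of 22 ERK cascade genes 4 rose and 0 fell, the largest ELK4, an ETS factor that ERK phosphorylates (1.23 ± 0.217, edgeR adjusted p = 0.00779). In MDAPCa2a 0 of 9 members passed by edgeR, where 0% of 13626 genes were called. An unadjusted edgeR p below 0.05 was found for 0 members and 236 genes, and DESeq2 called 0 members and 3 genes. Its DUSP6 was 17.5 and 17.7 CPM with androgen and 14.8 and 16.6 CPM without. On data simulated for these fits, 85.5% of genes with a log2 change of 2 were recovered in MDAPCa2a, 85% in LNCaP and 73% in VCaP. Of those with a change of 1, 28%, 55.5% and 7% were. Each simulation changed 200 genes and held all others level between groups. The adjusted threshold depends on how many genes change, so these rates are not the power of the real fits.

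The androgen effects were compared directly. The MYC effect was lower in VCaP than in LNCaP with a log2 difference of -1.75 ± 0.35 (edgeR adjusted p = 0.00254) and lower than in MDAPCa2a by a difference of -1.79 ± 0.35 (edgeR adjusted p = 0.00261), and both differences were called with each library left out (log2 -2.15 to -1.19 and -2.01 to -1.54). The SPRY4 effect was lower in VCaP than in LNCaP, with a difference of -4.20 ± 1.17 (edgeR adjusted p = 0.021), lost without LNCaP stripped replicate 2, LNCaP androgen replicate 1, VCaP stripped replicate 1 or VCaP androgen replicate 2 (log2 -5.02 to -2.15). These were the 2 members called between VCaP and LNCaP, where 10.9% of genes were. Against MDAPCa2a, VCaP also differed in JUN (log2 -1.66 ± 0.395, edgeR adjusted p = 0.0102) and DUSP6 (1.99 ± 0.554, edgeR adjusted p = 0.0273), making 3 members where 7.86% of genes were called. The JUN call was lost without VCaP stripped replicate 2 or MDAPCa2a stripped replicate 1 (log2 -1.96 to -1.23), and the DUSP6 call without 7 of the 8 libraries, VCaP androgen replicate 1 being the exception (1.79 to 2.20). Between VCaP and LNCaP the DUSP6 difference was 1.63 and the JUN difference -1.15, and neither passed (edgeR adjusted p = 0.0915 and 0.0595), JUN being called without VCaP stripped replicate 1 (log2 -1.49 to -0.72 over the libraries left out). Between MDAPCa2a and LNCaP 0 of 10 passed by edgeR, where 1.12% of 17323 genes did. An unadjusted edgeR p below 0.05 was found for 1 member and 2050 genes, and DESeq2 called 0 members and 470 genes.

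Androgen medium was also set against control medium on ACP, a comparison that shares its androgen libraries with the one above, so they are not independent of each other. In VCaP MYC was 166 and 170 against 456 and 503 CPM (log2 -1.50 ± 0.208, edgeR adjusted p = 0.00497, lost without ACP control replicate 2, log2 -1.55 to -1.44). FOS was 6.79 and 7.45 CPM with androgen and 1.32 and 0.95 CPM in control medium (log2 2.67 ± 0.649, edgeR adjusted p = 0.0419), called in none of the 4 fits with a library left out (log2 2.44 to 2.93) and not in the fit of all lines (edgeR adjusted p = 0.08). The groups did not overlap in either gene, and these were the 2 members called where 5.99% of genes were. DUSP5 and DUSP6 were higher by 1.79 and 1.69, without overlap, and did not pass (edgeR adjusted p = 0.0824 and 0.0923).

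In LNCaP the same comparison called 3 members, where 15.1% of genes were. DUSP4 was 10.4 and 12.9 CPM with androgen and 22.8 and 42 CPM in control medium (log2 -1.50 ± 0.25, edgeR adjusted p = 0.00402, called with each library left out, log2 -1.86 to -1.02). MYC was 81 and 158 against 226 and 250 CPM (log2 -1.03 ± 0.245, edgeR adjusted p = 0.0174), lost without either control library or androgen replicate 1 (log2 -1.57 to -0.64). SPRY4 was 28.8 and 3.95 against 1.29 and 1.53 CPM (log2 3.51 ± 0.757, edgeR adjusted p = 0.0116), lost without control replicate 1 or androgen replicate 1 (log2 1.44 to 4.33). None of the 3 had overlapping groups. LNCaP DUSP4 thus stood highest in control medium on both surfaces and did not return with androgen, at 15 ± 2.43 CPM stripped and 11.6 ± 1.76 CPM with androgen on ACP (SD, n = 2).

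**Figure D4:**
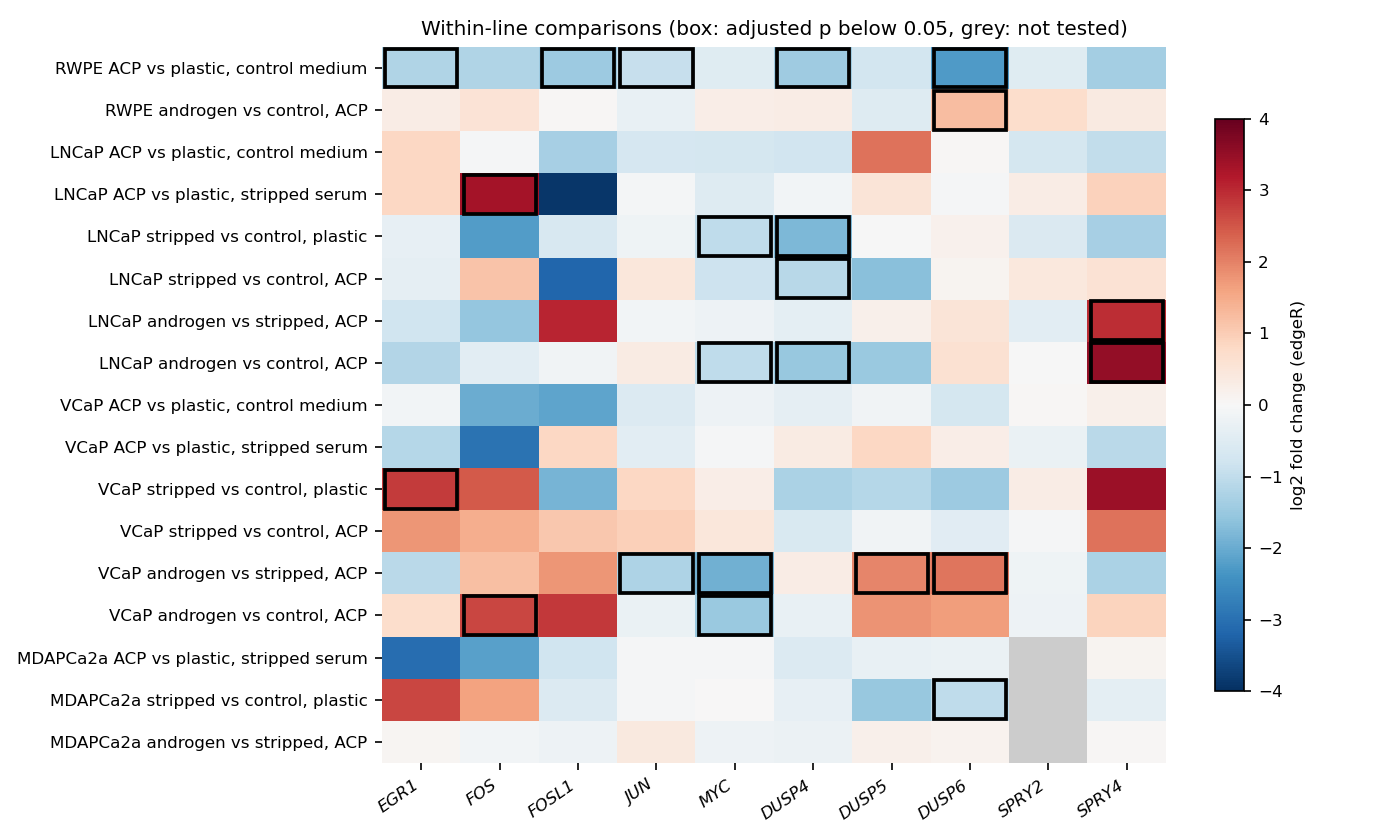
Log2 fold change (edgeR, colour scale) of the 10 genes in the 17 comparisons within a line, with a box where the adjusted p is below 0.05 and grey where SPRY2 was not tested in MDAPCa2a. The RWPE surface comparison is the one with all 10 values below 0. FOSL1 outside RWPE rests on 0 to 40 reads a library, and its deep colours carry no call in these comparisons.

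Some members varied widely between libraries of 1 group. Among groups with a mean of at least 5 CPM, the 2 libraries were 2-fold or more apart in 4 of 12 groups for SPRY4, 2 of 8 for EGR1, 2 of 9 for FOS and 2 of 10 for DUSP5, against 2.01% of all pairs of a gene and a group. MYC and JUN were within 2-fold in all 16 groups, DUSP4 in all 15 and DUSP6 in all 7. The median log2 difference between the libraries was 0.17 for MYC, 0.16 for SPRY2 and 0.19 over all genes, and 0.74 for EGR1, 0.75 for DUSP5 and 0.62 for FOS.

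The widest gap was in MDAPCa2a on plastic in stripped serum. EGR1 was 0.498 CPM in replicate 1 and 26.5 CPM in replicate 2 (15 and 656 reads), 49.6-fold apart, and FOS was 1.86 and 49.9 CPM (56 and 1237 reads), 26.4-fold apart. Of the 10440 genes at 5 CPM or more in that group, 0.00958% were as far apart as EGR1 and 0.0192% as far as FOS. Each share counts the gene itself, and the share for FOS also counts EGR1. Of 15 other immediate early genes 1 was 2-fold higher in replicate 2 (IER2, 53.8 and 119 CPM), where 0.364% of the 10440 genes were, and 1 was 2-fold lower (IER3, 17.3 and 8.32 CPM), where 1.26% were. MYC was 299 and 340 CPM. JUN, at 73.9 and 115 CPM, was less than 2-fold apart. What differed between these cultures is not given in the labels and was not tested.

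In LNCaP on ACP in control medium replicate 2 was higher than replicate 1 in DUSP5 (25.3 and 2.9 CPM), EGR1 (6.17 and 1.14 CPM), FOS (7.12 and 1.11 CPM) and DUSP6 (1.39 and 0.393 CPM), along with ATF3 (160 and 72.3 CPM) and the mRNA decay gene ZFP36 (11.8 and 4.86 CPM). SPRY4 stood apart from these, at 1.53 and 1.29 CPM. SPRY4 was uneven in other groups: 28.8 and 3.95 CPM in LNCaP on ACP with androgen, 1.43 and 18 CPM in VCaP plastic control, 5.82 and 15.5 CPM in VCaP ACP control and 79.2 and 15 CPM in VCaP ACP stripped. In MDAPCa2a, where it was highest, its libraries were at most 1.07-fold apart in every group. Over the 16 groups with replicates 1 and 2, the log2 differences of EGR1 and FOS between libraries had a Pearson r of 0.89 and a Spearman rho of 0.76. The MDAPCa2a plastic stripped pair has the widest differences of both genes. The 2 genes moved in the same direction in only 9 of the 16 groups. This pair had the highest r of the pairs of members looked at, the next being DUSP6 and SPRY4 at 0.57.

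**Figure D5:**
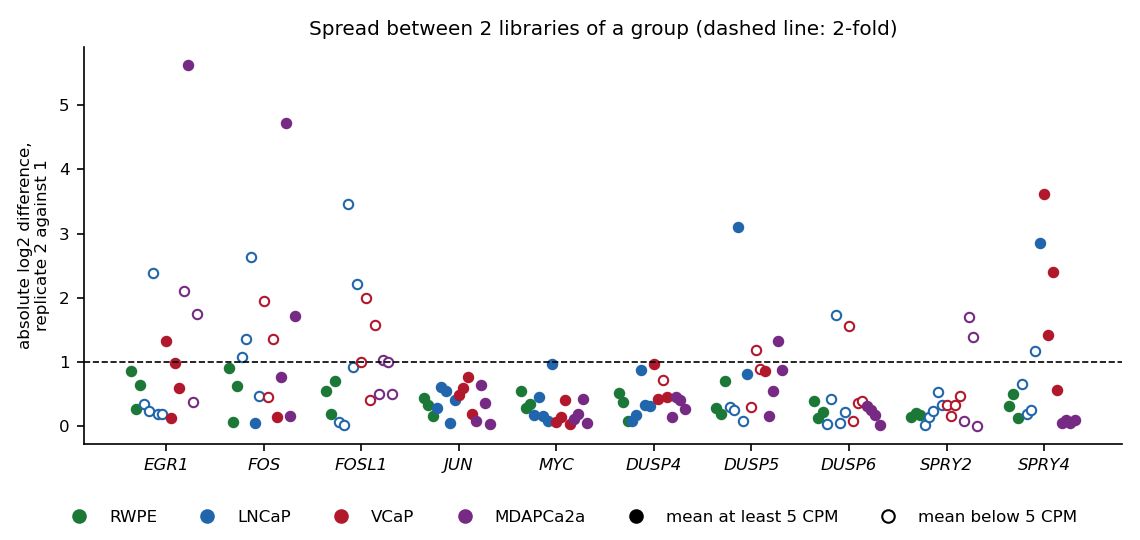
Absolute log2 difference between replicates 1 and 2 of each of 16 groups, by gene, coloured by line; filled points have a group mean of at least 5 CPM and the dashed line is 2-fold. EGR1 and FOS in MDAPCa2a on plastic in stripped serum lie highest, while MYC and JUN stay under the line in every group.

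Across the 17 group means of log2 CPM, the gene most like DUSP6 among 13218 was ETV4 (Pearson r = 0.98), itself an ERK output gene, followed by LONRF3 (0.961) and SLC16A3 (0.956). Nearest to the other transcription factor genes were MXRA7 (EGR1), CYP1A1 (FOS, at 0.62), DNHD1 (FOSL1), ZNF862 (JUN) and ZNF749 (MYC). Nearest to the other feedback genes were FKBP10 (DUSP4), SMURF1 (DUSP5), FERMT1 (SPRY2) and NIPA1 (SPRY4). DUSP5 and DUSP6 had r = 0.89 with each other, DUSP4 and SPRY2 -0.82, and SPRY2 and SPRY4 -0.69. These values mostly follow the 4 lines, which share groups, medium and depth. After the mean of each line was taken off, DUSP5 and DUSP6 still had 0.72 and EGR1 and FOS 0.71, while SPRY2 and SPRY4 had 0.14 and DUSP6 and SPRY4 0.00. On that scale the genes most like MYC were EIF4B (0.965), a translation initiation factor, ASIC1 (0.944) and CAMKV (0.939). The one most like FOS was JUNB (0.775), another AP-1 gene, and the one most like DUSP6 was IER3 (0.905), an immediate early gene. For the remaining members they were ZNF330 (EGR1), IGHMBP2 (FOSL1), KMT2E (JUN), RNPS1 (DUSP4), PMM2 (DUSP5), INTS4 (SPRY2) and GCC2 (SPRY4), at 0.837 to 0.947. In bulk RNA a change in a few cells and a smaller change in all of them cannot be told apart.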

How the data were processed

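Poly(A) RNA-seq of 34 libraries was deposited as 1 table of whole-number counts per gene for 26336 genes, which the authors made from their reads. The submitters' processing notes name STAR, HTSeq and hg19. The annotation, strand setting, versions and filters were not given in the sources used here, so reads of overlapping antisense genes cannot be told apart. Libraries held 15440141 to 44779246 counts, 4335 genes had 0 reads in all of them, and 0 columns could not be assigned to a sample. The members and gene lists were chosen with earlier results of these data known.

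Counts were tested with edgeR 4.0.16 and limma 3.58.1 in R 4.3.3 (TMM library scaling, genes kept by filterByExpr at its minimum count of 10, trended dispersion, quasi-likelihood F-test, Benjamini-Hochberg adjusted p below 0.05 over all genes tested). Comparisons within a line used a fit of that line, and those between lines or of effects a fit of all 17 groups. No label says what a replicate number shares. Differences between replicates 1 and 2 correlated above 0.1 in all 3 pairs of RWPE groups (0.102 to 0.132), so fits with the number as a block are given beside the RWPE results. Likeness used log2 CPM with a prior count of 1, over genes reaching 5 CPM in a group mean. All 10 members were described, and of each other list the gene with the largest rise and fall past the threshold was named. On simulated counts for the RWPE surface comparison a simulated log2 change of 2 was recovered in 93% of genes and one of 1 in 33.5%. The 200 changed genes were drawn at random and all others were held level. These rates therefore need not hold for the members or for the real fits, where other numbers of genes changed. Alternatives were RLE scaling, no filter, DESeq2 1.42.0, a replicate block, the fit of all lines, each library left out and, added after seeing the data, the removal of 12 genes with date-like values between 44562 and 44889. Exon lengths came from GENCODE 29 and promoters from RefSeq. Tables and figures were made in Python 3.11.15 with numpy 2.4.6, pandas 2.3.3 and matplotlib 3.10.9.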

Additional observations from a re-analysis of the deposited data

Results flagged for a closer look

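The androgen effect on ACP differed between lines for 4 members by a test of the difference itself. For VCaP minus LNCaP 2 members were called, where 10.9% of genes were, and for VCaP minus MDAPCa2a 3 members, where 7.86% were. The SPRY4, JUN and DUSP6 calls were each lost with some single libraries left out, as given above. For MYC the VCaP effect minus the LNCaP effect was -1.75 on the log2 scale, and minus the MDAPCa2a effect -1.794. For SPRY4 the VCaP minus LNCaP difference was -4.199. For JUN and DUSP6 the VCaP minus MDAPCa2a differences were -1.659 and 1.985. Between androgen and control medium on ACP, DUSP5 was lower in every androgen library of RWPE, with a log2 difference of -0.5293, and higher in every one of VCaP, at 1.792. It passed the edgeR test in neither line (adjusted p = 0.115 and 0.0824), and the difference between the lines was not tested.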

How the results depend on the processing

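The values here count members called, with the reported count in parentheses. The share of all genes called under each setting is not given beside them, so a count that moved is not a result about the members. Without the count filter the counts were 4 (0) for the LNCaP surface in control medium, 3 (1), 1 (0) and 2 (0) for the stripped surface in LNCaP, VCaP and MDAPCa2a, 4 (2), 3 (1) and 3 (1) for stripping on plastic in the same lines, 4 (1) and 3 (0) for stripping on ACP in LNCaP and VCaP, and 2 (1) for LNCaP androgen against stripped. They were 2 (1), 5 (3) and 5 (2) for androgen against control in RWPE, LNCaP and VCaP, 5 (2) for VCaP against LNCaP on plastic, 4 (2) and 1 (0) for the androgen effect of VCaP and of MDAPCa2a against LNCaP, 1 (0) for the stripping difference, 2 (0) for the surface difference and 3 (0) for the LNCaP interaction. With DESeq2 they were 3 (0) for the LNCaP surface in control medium, 2 (1) for stripping on plastic in VCaP and MDAPCa2a, 2 (1) and 2 (0) for stripping on ACP in LNCaP and VCaP, 2 (1) for RWPE androgen, and 1 (0) for the stripping and surface differences. In the fit of all lines they were 2 (5) for the RWPE surface, 1 (0) for the LNCaP surface in control medium, 0 (1) for the LNCaP stripped surface, 0 (1) for MDAPCa2a stripping on plastic, 1 (0) for VCaP stripping on ACP and 0 (1) for LNCaP androgen. With RLE scaling VCaP stripping on plastic had 0 (1). Where these choices changed a count, the cause was not tested. With the date-like genes removed, all 8 counts concerned kept within 1.5 times. No called value changed its sign under these settings or with 1 library left out.

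With 1 library left out the counts ran from 0 to 3 (5) for the RWPE surface, 0 to 3 (0) and 0 to 1 (1) for the LNCaP surface in control and stripped medium, 1 in each (2), 0 to 3 (1) and 0 in each (1) for stripping on plastic in LNCaP, VCaP and MDAPCa2a, 0 to 2 (1) for LNCaP stripping on ACP, 0 to 2 (1) and 1 to 2 (4) for androgen against stripped in LNCaP and VCaP, and 0 to 2 (1), 1 to 3 (3) and 0 to 1 (2) for androgen against control in RWPE, LNCaP and VCaP. They ran from 1 to 2 (2) and 1 to 3 (3) for the androgen effect of VCaP against LNCaP and MDAPCa2a, 0 to 2 (0) for the surface difference and 0 to 1 (0) for the interaction. Where a group was left with 1 library, that library was assumed to vary like the other groups.

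No label says what a replicate number shares, and the fits reported first have no block. With the replicate number as a block the counts were 8 (5) for the RWPE surface, 0 (1) for VCaP stripping on plastic and 2 (1) for RWPE androgen, and 32 of 35 counts kept within 1.5 times. The differences between replicates 1 and 2 correlated above 0.1 in all 3 pairs of RWPE groups (0.102 to 0.132), and over both signs in the other lines, by -0.239 to 0.385 in LNCaP, -0.43 to 0.221 in VCaP and -0.349 to 0.421 in MDAPCa2a. FOSL1 outside RWPE and SPRY2 in MDAPCa2a rest on few reads, at most 40 and 3 a library.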
